A study of Mus musculus with 4 samples.

Results

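The genes described here are 10 myeloid receptor and adaptor genes: the CD300 receptors Cd300a, Cd300lb, Cd300ld and Cd300lf, the TREM receptors Trem1, Trem2 and Trem3, the adaptors Tyrobp and Hcst, and the paired immunoglobulin-like receptor Pirb. They were chosen by name, and all 10 were found among the 24235 genes obtained by summing the deposited transcript values per symbol. Messenger RNA was sequenced from bone marrow derived macrophages, induced with M-CSF, of C57BL/6 mice at 7 weeks of age. The design crossed genotype, wild type (WT) or Sema6D-/-, with LPS or none, and each of the 4 groups was a single library. The Sema6D-/- libraries are called KO-labelled below, for a reason given with the depth. LPS (lipopolysaccharide of the bacterial outer membrane, which activates macrophages through Toll-like receptor signalling) was given at 100 ng/ml for 4 h. The state without LPS was read from the word non in the sample titles, while the labels' treatment text names LPS for every sample. Every LPS ratio below rests on that reading of the titles. The part of Sema6d that was removed, any pooling of mice and their sex are not stated in the labels. By its title, the study asked how reverse signalling by the semaphorin Sema6D acts on lipid metabolism and macrophage polarization.

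These receptors sit on myeloid cells and work in opposed sets. Activating members have short tails and borrow an adaptor: Tyrobp (DAP12) carries an immunoreceptor tyrosine-based activation motif (ITAM) that recruits the kinase Syk, and Hcst (DAP10) carries a motif that recruits phosphoinositide 3-kinase. Inhibitory members carry inhibitory motifs (ITIMs) in their own tails, which recruit the phosphatases Ptpn6 (SHP-1) and Ptpn11 (SHP-2). In macrophages the set is known for tuning the response to microbial products, lipids and dying cells.

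Levels are in FPKM, a count of sequenced fragments divided by transcript length and scaled to depth by the authors, and can be compared between genes. Single libraries allow no replicate check, so no test was run, and every difference describes these libraries. Ratios of the 10 genes are log2 ratios of FPKM with a 95% interval in square brackets, which covers counting error alone and rests on fragment numbers estimated from the steps of low FPKM values. Counts of genes past a size of 2-fold used log2((FPKM + 1)/(FPKM + 1)) and took in genes that reached 1 FPKM in any library compared. This scale understates ratios of low genes.

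The libraries held an estimated 17363464 to 23561196 fragments, and 9682 to 10057 genes reached 1 FPKM. Macrophage markers were present in every library, from Mertk (11.7 to 61.3 FPKM) to Lyz2 (14435 to 19821 FPKM). Sema6d was low, at 0.304 and 0.219 FPKM in WT without and with LPS. It was not lower for the KO-labelled libraries, at 0.563 and 0.592 FPKM. The Sema6d level thus does not bear out the labels, and every genotype direction below rests on the labels alone. Because the part of Sema6d that was removed is not stated, these levels cannot show whether the labels are right. Xist, transcribed from the inactive X chromosome, was at 22.3 and 21.4 FPKM in WT and at most 0.0333 FPKM in the other genotype, and the Y-linked Eif2s3y was at most 0.0207 FPKM in WT against 33.5 and 50.4 FPKM, so sex and genotype cannot be told apart. Neutrophil markers also differed by genotype: of 8 genes 7 were measured, and their summed level over all 8 was 828 and 1272 FPKM in WT against 234 and 359.8 FPKM for the KO-labelled libraries. Lymphocyte markers summed to at most 1.02 FPKM, mast cell and basophil markers to at most 0.924 FPKM with Mcpt4 and Tpsb2 at 0, and dendritic cell markers to at most 7.97 FPKM. Erythroid and platelet markers summed to 79.7 to 105 FPKM, nearly all of it Pf4 and stromal markers to at most 4.45 FPKM. Osteoclast markers summed to 58.0 and 68.5 FPKM in WT against 24.6 and 39.2 FPKM, and among macrophage markers the log2 genotype ratios without and with LPS were 1.13 and 1.05 for Cd14, -0.84 and -1.02 for Itgam, and 0.95 and 1.97 for Mertk. The part of these markers in the genotype differences below was not tested.

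In WT without LPS the order was Tyrobp, Trem2, Pirb, Cd300lb, Cd300ld, Cd300a, Cd300lf, Hcst, Trem3 and Trem1. Tyrobp ranked 32nd of all genes in that library, and Trem2 291st. The library labelled Sema6D-/- without LPS kept the first places (Tyrobp, Trem2, Pirb) but had Cd300ld just above Cd300lb, Hcst above Cd300lf and Trem1 above Trem3. Trem1 and Trem3 differed by little in WT without LPS, at 2.06 and 2.30 FPKM on an estimated 178 and 56 fragments.

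**Figure D1:**
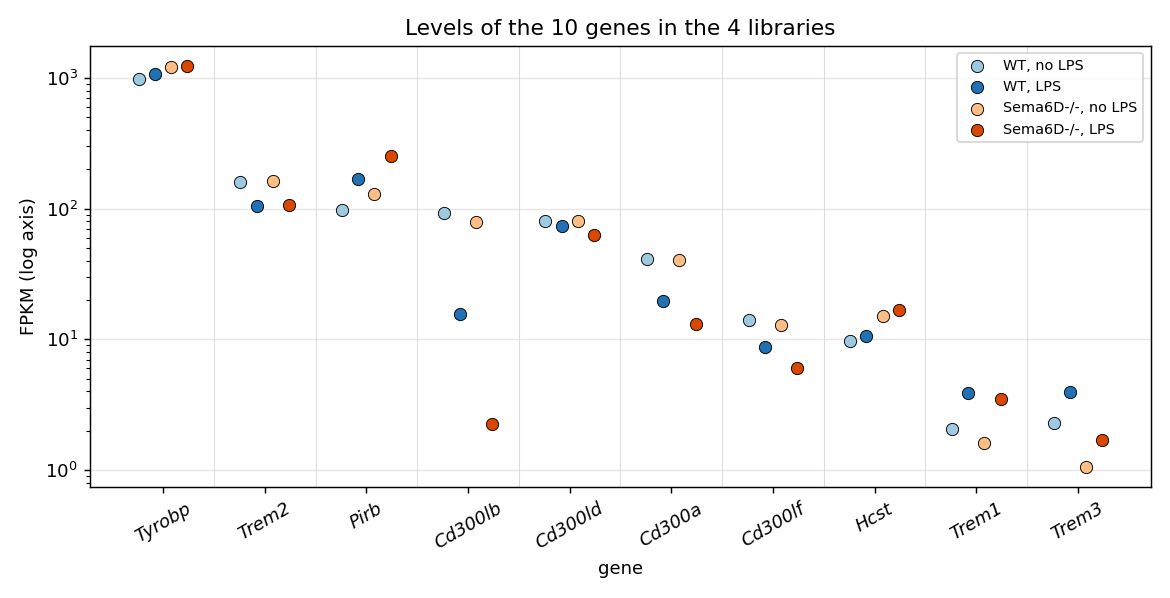
Level of each of the 10 genes (FPKM, log axis) in the 4 libraries, 1 point per library. Cd300lb spans 2.27 to 92.0 FPKM and Tyrobp stays between 986 and 1236 FPKM.

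With LPS, 2 of the 10 genes were at least 2-fold lower in WT, Cd300a and Cd300lb, and the same 2 for the KO-labelled libraries. None was at least 2-fold higher in either. Over all genes, 4.85% of 10375 were at least 2-fold lower and 10.7% higher with LPS in WT, and 8.81% of 10398 lower and 14.0% higher for the KO-labelled libraries. The median log2 ratio of the 10 genes was -0.00 in WT and -0.17 for the KO-labelled libraries, beside -0.00 and 0.01 over all genes measured. On each side 5 genes had a ratio above 0 and 5 below. The split of calls depended on scaling: with every library brought to the same total, WT had 713 genes higher and 1502 lower, against 1114 and 503 as deposited. In the KO-labelled libraries it became 743 and 3021, against 1453 and 916, and 1265 and 1152 after centring on the median.

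Cd300lb, an activating CD300 receptor that signals through Tyrobp, had the lowest LPS ratio of the 10 genes in both genotypes. It measured 92.0 FPKM in WT without LPS, 15.6 in WT with LPS, 79.6 in the KO-labelled library without LPS and 2.27 in that with LPS. Both libraries with LPS were thus far below both without, and the KO-labelled one was the lowest. Its level with LPS was 5.91-fold lower in WT (log2 ratio -2.56 [-2.67, -2.46]) and 35.1-fold lower for the KO-labelled libraries (-5.13 [-5.43, -4.85]). Among all measured genes it was the 53rd lowest in WT and the 24th lowest in the other genotype. The lowest of these values rested on an estimated 101 fragments, against 7605 in WT without LPS.

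Without LPS the genotypes were close in Cd300lb, with a log2 ratio of the KO-labelled library to WT of -0.21 [-0.26, -0.16]. With LPS the ratio was -2.78 [-3.09, -2.48], a 6.87-fold lower level. The difference of the LPS responses (KO-labelled libraries minus WT) was -2.57 [-2.87, -2.27]. On the scale with 1 added, Cd300lb was the only one of the 10 genes past 2-fold in that difference and in the genotype comparison with LPS. Without the added 1, Trem3 was also past 2-fold lower in the latter (log2 ratio -1.22). Over all genes, 1.25% of 10680 were at least 2-fold lower in the difference of responses and 1.83% higher, 134 and 195 genes that turned into 223 and 123 at a common total. The median of the 10 genes was -0.15 in that difference and -0.17 in the genotype comparison with LPS, beside -0.01 and 0.04 over all genes. In the genotype comparison with LPS 3.18% of 10078 genes were lower and 3.09% higher, a split of 320 and 311 that turned into 412 and 188 at a common total. Because 1 library stood for each group, whether another culture would give this difference is unknown.

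Cd300a, an ITIM-bearing receptor for aminophospholipids exposed on dying cells, lies next to Cd300lb on chromosome 11 and was also lower with LPS. It measured 41.0 FPKM in WT without LPS, 19.6 in WT with LPS, 40.6 in the KO-labelled library without LPS and 13.1 in that with LPS. The unstimulated values were nearly equal, and both stimulated values were lower. The log2 ratio of LPS to no LPS was -1.07 [-1.15, -0.99] in WT and -1.64 [-1.74, -1.53] for the KO-labelled libraries. The difference of responses was -0.57 [-0.70, -0.44], the same direction as for Cd300lb but below the 2-fold size. In bulk RNA, fewer cells that express a gene and less RNA per cell cannot be told apart.

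Cd300lf, an inhibitory receptor that binds phosphatidylserine and ceramide, was the least abundant of the 4 CD300 receptors without LPS. Its level was 14.0 FPKM in WT without LPS, 8.67 in WT with LPS, 12.9 in the KO-labelled library without LPS and 6.04 in that with LPS. Both stimulated libraries were below both unstimulated ones. The log2 LPS ratio was -0.70 [-0.90, -0.50] in WT and -1.09 [-1.36, -0.84] for the KO-labelled libraries. On the scale with 1 added the latter was -0.98, just inside the 2-fold size, and Cd300a in WT was just past it at -1.03. Cd300lf passed 2-fold there with smaller pseudocounts (-1.08 and -1.09), after centring on the median (-1.12) and at a common total (-1.65, and -1.13 in WT). Its transcript with the highest mean over the 4 libraries gave -0.02 alone. That transcript held only 47.6% of Cd300lf in the KO-labelled library without LPS, against 99.99% in that with LPS.

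Cd300ld, an activating receptor that pairs with the Fc receptor gamma chain (Fcer1g), differed least among the 4. It measured 81.0, 73.9, 81.0 and 63.2 FPKM in WT without LPS, WT with LPS, and the KO-labelled libraries without and with LPS. The 4 values lay close together, with the 2 stimulated libraries lowest. Its log2 LPS ratios were -0.13 [-0.19, -0.07] and -0.36 [-0.43, -0.29], and it passed 2-fold in neither genotype as deposited, though after rescaling to a common total it was -1.10 for the KO-labelled libraries. Cd300ld has close relatives beside it in the CD300 cluster, and how reads shared with them were counted is not given in the sources used here, so its level is uncertain to that extent, as are those of the other CD300 genes.

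The 4 CD300 transcripts together summed to 228 FPKM in WT without LPS, 118 in WT with LPS, 214 in the KO-labelled library without LPS and 84.6 in that with LPS. Cd300lb made up 40.3% of this sum in WT without LPS and 13.2% with LPS, and 37.2% and 2.68% for the KO-labelled libraries. Cd300ld made up 35.5% and 62.8% in WT, and 37.8% and 74.7% for the KO-labelled libraries. The share of Cd300a was 18.0% and 16.6% in WT and down to 15.5% in the KO-labelled library with LPS, and that of Cd300lf between 6.02% and 7.37%. The mix of these 4 therefore went from near-equal Cd300lb and Cd300ld to mostly Cd300ld in the stimulated libraries of both genotypes. The Cd300ld to Cd300lb ratio with LPS was 4.75 in WT and 27.9 in the other. Over the wider CD300 cluster, Cd300ld held only 26.5% in WT with LPS and 29.1% in the KO-labelled library with LPS. Cd300c2 held more, at 36.3% and 38.9%.

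**Figure D2:**
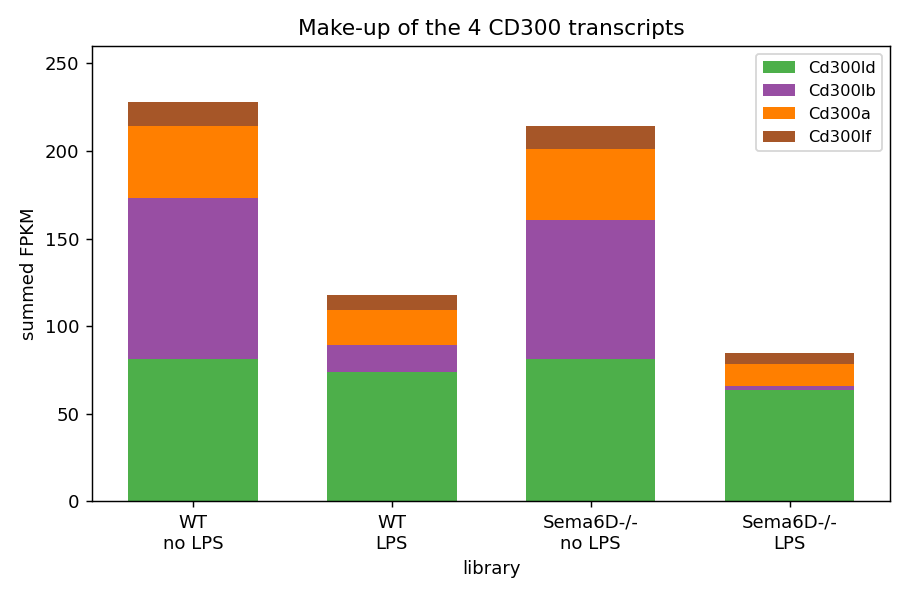
Summed FPKM of Cd300ld, Cd300lb, Cd300a and Cd300lf in each library, stacked by gene. The Cd300lb part shrinks from 40.3% to 13.2% with LPS in WT and from 37.2% to 2.68% for the KO-labelled libraries.

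Other genes of the chromosome 11 cluster had log2 LPS ratios nearer to 0 than that of Cd300lb. Cd300c2, an activating receptor beside Cd300ld, measured 109, 101, 101 and 84.5 FPKM in the same order of libraries, the highest of the cluster's genes in every library. Cd300e, also an activating receptor, was higher with LPS as deposited (log2 ratios of 0.59 and 0.35, the second smaller than the shift of -0.76 that a common total brings), at 33.1 and 50.4 FPKM in WT and 35.0 and 44.9 FPKM for the KO-labelled libraries. Cd300ld5 measured 5.53, 9.67, 2.57 and 3.16 FPKM, and with LPS it was past 2-fold lower in the KO-labelled library than in WT (log2 ratio -1.36), the same direction as Cd300lb. Cd300c stayed below 1 FPKM, and Cd300ld3 was listed at 0 in every library.

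Promoter sequence was taken from RefSeq on GRCm38.p6 for the 8 of the 10 genes matched there. Entries for Trem3 and Tyrobp were not matched. The 250 bases before the start are shown for Cd300lb and Cd300a, the 2 genes that were lower past 2-fold, for Cd300ld, their less changed neighbour, and for Pirb, which had the highest LPS ratio among the abundant receptors. Capitals mark GAGGAA or its reverse complement TTCCTC, the core bound by the myeloid transcription factor PU.1.
Cd300lb (chr11:114934372-114934621, minus strand): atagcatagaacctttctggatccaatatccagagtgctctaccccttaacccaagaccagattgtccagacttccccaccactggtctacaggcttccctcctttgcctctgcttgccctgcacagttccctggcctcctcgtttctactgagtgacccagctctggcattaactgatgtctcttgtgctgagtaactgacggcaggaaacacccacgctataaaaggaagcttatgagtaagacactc
Cd300a (chr11:114889791-114890040, plus strand): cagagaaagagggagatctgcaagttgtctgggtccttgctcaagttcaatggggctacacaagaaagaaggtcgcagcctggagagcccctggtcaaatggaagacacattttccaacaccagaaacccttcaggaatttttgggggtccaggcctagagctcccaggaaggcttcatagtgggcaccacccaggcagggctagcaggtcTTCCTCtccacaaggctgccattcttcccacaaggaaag
Cd300ld (chr11:114989887-114990136, minus strand): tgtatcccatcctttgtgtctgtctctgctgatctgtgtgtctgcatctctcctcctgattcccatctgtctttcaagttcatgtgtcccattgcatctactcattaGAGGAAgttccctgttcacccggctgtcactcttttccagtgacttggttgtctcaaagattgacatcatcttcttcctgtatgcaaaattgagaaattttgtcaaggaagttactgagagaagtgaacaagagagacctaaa
Pirb (chr7:3720383-3720632, minus strand): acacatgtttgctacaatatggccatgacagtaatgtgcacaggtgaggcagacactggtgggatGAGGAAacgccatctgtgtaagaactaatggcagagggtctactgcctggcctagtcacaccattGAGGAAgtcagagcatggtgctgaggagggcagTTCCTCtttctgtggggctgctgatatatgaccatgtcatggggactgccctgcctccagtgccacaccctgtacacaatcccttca
The 7 motifs searched, on both strands, were the PU.1 core GAGGAA, the TATA box TATAAA, AP-1 (TGANTCA), the E-box CANGTG, NF-kB (GGG and CC with any 5 bases between), the interferon response motif (GAAA, any 2 bases, GAAA) and C/EBP (TT, any 2 bases, G, any base, AA). GAGGAA or its complement was found in 6 of the 8 windows and in 23.3% of all 32851 windows of the same length. It was found 3 times in Pirb, 1 time each in Cd300a and Cd300ld and not in these 250 bases of Cd300lb. TATAAA starts 30 bases before the Cd300lb start, and 2 of the 8 windows hold it on either strand, against 12.4% of all windows. The NF-kB motif was in 4 of the 8 and in 45.8% of all windows, and in Cd300ld and in Pirb 1 match overlaps a PU.1 core. C/EBP was in 6 of the 8 against 36.8%, and 1 of its matches, in Pirb, overlaps a PU.1 core. The E-box was in 3 against 39.5%, AP-1 in 1 against 6.75%, and the interferon response motif in 0 against 2.98%. These matches describe letters and not binding, and no measurement here bears on which factors were bound.

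Trem2, an activating lipid and lipoprotein receptor of macrophages and microglia that signals through Tyrobp, was by far the most abundant TREM gene. Its summed level was 161 FPKM in WT without LPS, 106 in WT with LPS, 162 in the KO-labelled library without LPS and 107 in that with LPS. Both unstimulated libraries were higher than both stimulated ones, and the genotypes were close in each state as deposited. The log2 LPS ratio was -0.61 [-0.69, -0.53] in WT and -0.59 [-0.68, -0.50] for the KO-labelled libraries, short of 2-fold as deposited, and -1.13 and -1.34 after rescaling to a common total. The genotype ratio was 0.00 [-0.06, 0.07] without LPS and 0.02 [-0.08, 0.12] with LPS. The difference of responses was 0.02 [-0.10, 0.14]. On the added scale at a common total, the genotype ratio with LPS and the difference of responses were both -0.21.

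The make-up of Trem2 by transcript differed between the genotypes. The file rows for Trem2 were NM_031254 and NM_001272078. In the GENCODE transcripts linked to them both have 5 exons, and the fourth exon of NM_001272078 starts 55 bases earlier, while its first exon is 87 bases shorter. The 55 bases leave a remainder of 1 when divided by 3, so the reading frame after it differs, and the coding lengths are 681 and 747 bases. The extra bases carried by NM_001272078 are shown because they change the coding part.
Trem2 extra bases of exon 4: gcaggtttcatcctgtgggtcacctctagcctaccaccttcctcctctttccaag
NM_001272078 measured 31.1 FPKM in WT without LPS, 25.5 in WT with LPS, 2.02 in the KO-labelled library without LPS and 3.08 in that with LPS. Both WT libraries were far above both KO-labelled libraries. Its share of Trem2 was 19.3% and 24.2% in WT and 1.25% and 2.87% in the other genotype. The log2 ratio against WT came to -3.94 [-4.43, -3.46] without LPS and -3.05 [-3.55, -2.61] with LPS, on an estimated 39 and 43 fragments for the KO-labelled libraries. NM_031254, the shorter coding form, was higher there by a log2 ratio of 0.29 [0.22, 0.36] without LPS and 0.38 [0.27, 0.48] with LPS. The split between transcripts was made by the authors' software and no replicate shows its error, which these counting intervals do not cover.

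**Figure D3:**
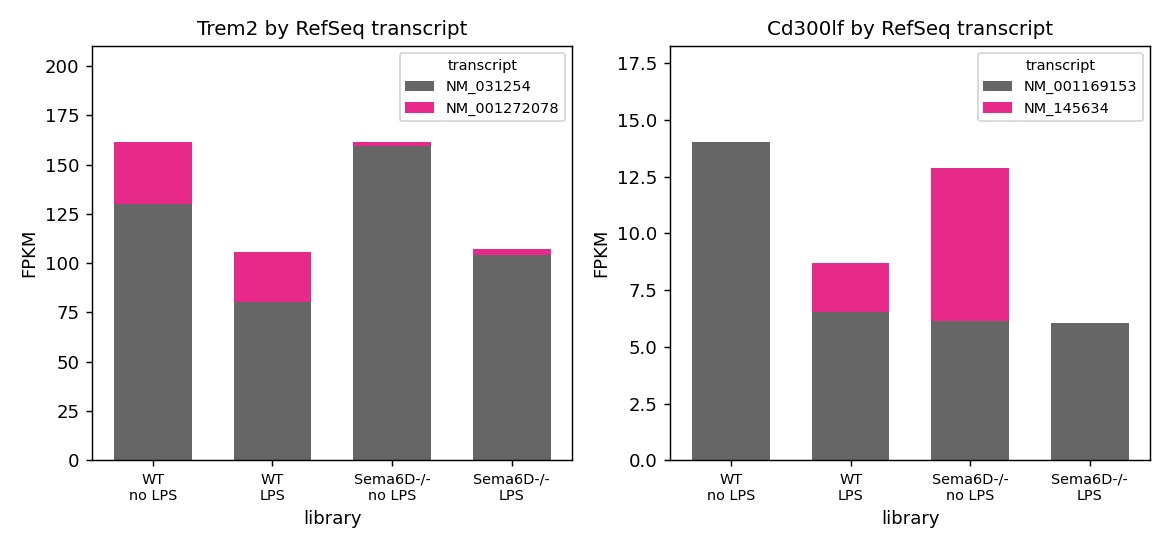
FPKM of the 2 transcripts of Trem2 (left) and of Cd300lf (right) in each library, stacked. NM_001272078 holds 19.3% and 24.2% of Trem2 in WT and 1.25% and 2.87% for the KO-labelled libraries, while NM_145634 of Cd300lf appears in 2 libraries of different genotype.

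Cd300lf also had 2 transcript rows, which differ by 21 bases at the start of the third of 7 exons, a multiple of 3. The bases are shown because they are the whole difference, and they are present in NM_001169153.
Cd300lf extra bases of exon 3: caatccaagtacccattacag
NM_145634, which lacks them, made up 0.0160% of Cd300lf in WT without LPS, 24.8% in WT with LPS, 52.4% in the KO-labelled library without LPS and 0.0148% in that with LPS. The 2 libraries with the transcript were thus of different genotype and different treatment. Its levels were 2.15 FPKM (an estimated 72 fragments) and 6.75 FPKM (252 fragments) where present. The shares were assigned by the authors' software on an estimated 168 to 728 fragments for the gene, and no replicate shows how stable that assignment is. The summed Cd300lf levels given above do not depend on it.

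Trem1, which amplifies inflammatory signals through Tyrobp, was low in all libraries and higher with LPS. It measured 2.06 FPKM in WT without LPS, 3.86 in WT with LPS, 1.61 in the KO-labelled library without LPS and 3.49 in that with LPS. Both stimulated libraries were above both unstimulated ones. The log2 LPS ratios were 0.90 [0.61, 1.20] in WT and 1.12 [0.75, 1.49] for the KO-labelled libraries, and the second is past 2-fold only without the added 1 (0.78 with it). On the added scale at a common total the ratios were 0.28 and 0.25. The genotype ratios were -0.36 [-0.72, 0.00] without LPS and -0.14 [-0.44, 0.16] with LPS, and both intervals include 0, so no genotype difference was detectable at this depth.

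Trem3, an activating receptor that also pairs with Tyrobp and lies beside Trem1 on chromosome 17, was at 2.30 FPKM in WT without LPS, 3.98 in WT with LPS, 1.06 in the KO-labelled library without LPS and 1.71 in that with LPS. Both WT libraries were above both KO-labelled libraries, which held an estimated 19 and 22 fragments. The log2 ratio against WT came to -1.12 [-1.96, -0.35] without LPS and -1.22 [-1.99, -0.50] with LPS, past 2-fold only without the added 1 (-0.68 and -0.88 with it). The LPS ratio was 0.79 [0.25, 1.34] in WT and 0.69 [-0.26, 1.66] for the KO-labelled libraries, and the latter turned to -0.04 on the added scale after rescaling to a common total. Neutrophils also express Trem1 and Trem3, and of the 7 neutrophil markers measured 5 were at least 2-fold lower without LPS and 6 with LPS for the KO-labelled libraries, with 0 higher. S100a8 went from 409 and 627 FPKM in WT to 103 and 166 FPKM, while Ly6g, a defining neutrophil marker, was at 0.275 to 0.450 FPKM in all 4. The part of these markers in the Trem3 difference was not tested.

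Trem2 held 97.4% of the summed TREM level in WT without LPS and 93.1% with LPS, and 98.4% and 95.4% for the KO-labelled libraries. The ratio of Trem2 to Trem1 was 78.1 and 27.4 in WT and 100.3 and 30.7 in the other genotype. The opposed directions of Trem2 and Trem1 with LPS were thus seen in both genotypes.

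Tyrobp, the shared adaptor, measured 986 FPKM in WT without LPS, 1080.3 in WT with LPS, 1218 in the KO-labelled library without LPS and 1236 in that with LPS. The 2 WT libraries were the lowest. The log2 LPS ratio was 0.13 [0.09, 0.17] in WT and 0.02 [-0.02, 0.07] for the KO-labelled libraries, but -0.40 and -0.74 with the libraries at a common total. The genotype ratio was 0.30 [0.26, 0.34] without LPS and 0.19 [0.15, 0.24] with LPS, the latter -0.04 after the same rescaling. No ratio of Tyrobp reached 2-fold. Tyrobp was more abundant than Trem1, Trem2, Trem3 and Cd300lb together in every library. Its level over their sum was 3.83 and 8.37 in WT and 4.99 and 10.8 for the KO-labelled libraries, without and with LPS. The only CD300 gene in that sum is Cd300lb, which had the lowest LPS ratio of the 10 genes. Left out were the activating receptors Cd300c2 (84.5 to 109 FPKM) and Cd300e (33.1 to 50.4 FPKM). The ratio therefore does not describe all partners of the adaptor.

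Hcst lies beside Tyrobp on chromosome 7, on the opposite strand, and was 73.0 to 102 times less abundant per length than Tyrobp. It measured 9.65 FPKM in WT without LPS, 10.6 in WT with LPS, 15.2 in the KO-labelled library without LPS and 16.9 in that with LPS. Both KO-labelled libraries were above both WT libraries. The log2 ratio against WT came to 0.65 [0.17, 1.14] without LPS and 0.68 [0.12, 1.24] with LPS, on an estimated 50 to 79 fragments per library, and did not reach 2-fold. The LPS ratio was 0.13 [-0.42, 0.68] in WT and 0.16 [-0.34, 0.65] for the KO-labelled libraries, so no LPS difference was detectable at this depth, and both turned negative after rescaling to a common total. Whether the authors' counting used strand is not given in the sources used here, so whether reads were shared with the facing Tyrobp gene is unknown.

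Pirb, an ITIM-bearing inhibitory receptor for MHC class I, was the only abundant receptor of the 10 that was higher with LPS. It measured 98.1 FPKM in WT without LPS, 167 in WT with LPS, 129 in the KO-labelled library without LPS and 254 in that with LPS. Both stimulated libraries were above both unstimulated ones, and within each state the KO-labelled library was higher. The log2 LPS ratio was 0.77 [0.73, 0.81] in WT and 0.98 [0.94, 1.02] in the other genotype, short of 2-fold on the added scale (0.76 and 0.98) and 0.24 and 0.22 after rescaling to a common total. The genotype ratio was 0.39 [0.35, 0.43] without LPS and 0.60 [0.57, 0.64] with LPS. The difference of responses was 0.21 [0.16, 0.26], which became -0.02 on the added scale after the rescaling. Without LPS none of the 10 genes differed by 2-fold between the genotypes on the added scale, beside 2.51% of 10322 genes higher and 2.19% lower. Without the added 1, Trem3 was past 2-fold lower there (log2 ratio -1.12).

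The activating PIR-A receptors are near-identical to Pirb outside the cell, and reads shared between them may be split differently by other counting. Of the related activating receptors with values, Pira2 (1.47 to 1.87 FPKM) and Lilra6 (2.41 to 3.75 FPKM) were both far below Pirb in every library. No other PIR-A gene that was searched for had a value, so the level of the PIR-A receptors as a whole is unknown. The ratio of Pirb to Cd300a, both inhibitory, was 2.39 and 8.55 in WT and 3.17 and 19.4 for the KO-labelled libraries, without and with LPS. With LPS, Pirb was thus higher and Cd300a lower in both genotypes, both as deposited and after rescaling.

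**Figure D4:**
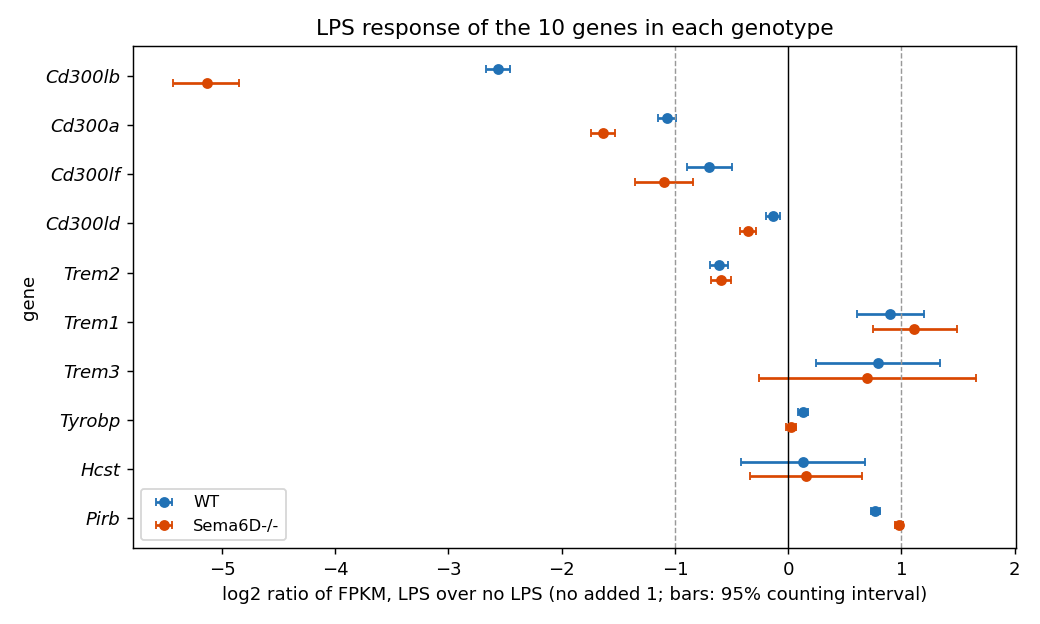
Log2 ratio of FPKM with LPS over without LPS for the 10 genes in WT and for the KO-labelled libraries, with 95% counting intervals; dashed lines mark 2-fold. Cd300lb sits at -2.56 and -5.13, Pirb at 0.77 and 0.98, and the other genes lie between -1.64 and 1.12.

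Related receptors were described from lists chosen with earlier results of these data known, by counts and medians as deposited, beside all-gene medians of -0.00 and 0.01. Rescaling to a common total shifts LPS ratios by -0.53 and -0.76, more than most of these medians. Over all genes measured, the share past 2-fold with LPS was 10.7% higher and 4.85% lower in WT, and 14.0% and 8.81% in the KO-labelled pair, and the counts below are to be read against these shares. Among 16 other genes of the CD300, TREM, PIR, LILR and PILR families in the tables, 3 of 12 measured passed 2-fold upward with LPS in WT and 0 lower (median 0.51). In the KO-labelled libraries 5 of 13 were higher and 1 lower (median 0.22). Lilrb4a, an inhibitory receptor, measured 228 and 528 FPKM in WT and 418 and 923 FPKM in the other genotype. Pilra, an inhibitory receptor, went from 27.8 to 60.2 FPKM in WT and from 32.5 to 152 FPKM for the KO-labelled libraries, and Treml2, a TREM-like receptor, had log2 ratios of 1.32 and 1.43. Treml1, best known from platelets, was the 1 lower, at 3.03 against 0.842 FPKM.

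Of 14 receptors and adaptors linked to Tyrobp, Hcst or Fcer1g, 4 of 11 measured passed 2-fold upward with LPS in WT and 3 for the KO-labelled libraries, with 0 lower (medians 0.52 and 0.65), beside 10.7% and 14.0% of all genes higher. Klrk1, the NKG2D receptor that signals through Hcst, went from 0.0948 to 4.29 FPKM in WT and from 0.270 to 7.40 FPKM in the other genotype. Clec4e, a receptor for mycobacterial glycolipid that uses Fcer1g, measured 34.6 and 732 FPKM in WT and 318 and 2003 FPKM there. Clec5a, which pairs with Tyrobp, was at 7.04 FPKM without and 18.9 with LPS in WT, and at 37.2 FPKM with LPS for the KO-labelled genotype, whose log2 LPS ratio was 0.79. Fcer1g itself was at 1728 and 2486 FPKM in WT and 1847 and 2902 FPKM there, with log2 ratios of 0.52 and 0.65.

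Of 16 other inhibitory receptors, 1 of 14 measured was higher with LPS in WT, Fcgr2b, and 3 of 14 for the KO-labelled libraries, with 0 lower (medians 0.22 and 0.22). These counts are near the shares of all genes higher, 10.7% and 14.0%. Fcgr2b, the inhibitory Fc receptor, measured 29.0 and 102 FPKM in WT and 45.6 and 219 FPKM there. With LPS, Cd200r1, an inhibitory receptor for CD200, was lower in the KO-labelled library than in WT, at 7.87 against 21.5 FPKM, and Cd33 was higher, at 41.6 against 16.7 FPKM.

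Activating signalling genes below the adaptors were described next. Of 25 measured with LPS, 8 were higher and 1 lower in WT (median 0.74), and 11 higher and 2 lower for the KO-labelled libraries (median 0.87), beside 10.7% and 14.0% of all genes higher. Malt1, a scaffold and protease on the route to NF-kB, went from 6.92 to 47.6 FPKM in WT and from 14.4 to 182 FPKM in the other genotype, and Lcp2 (SLP-76), a Syk substrate, had log2 ratios of 2.61 and 2.86. Src had a log2 ratio of 2.46 in WT. Bcl2a1d, a BCL2 family gene and not a signalling component, was also counted in this list and had 2.53. Of 13 inhibitory signalling genes, 0 were higher and 1 lower in WT (median 0.07), and 2 higher and 3 lower for the KO-labelled libraries (median -0.24). Inpp5d (SHIP-1), a lipid phosphatase, went from 96.5 to 51.6 FPKM in WT and from 85.3 to 23.3 FPKM there, and Ptpn6 stayed between 245 and 314 FPKM. Sh2d1b1, an SH2 adaptor of SLAM receptors, was the 1 lower in WT, at 5.68 and 1.65 FPKM.

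Ligands and shedding enzymes of these receptors were mixed. Of 16 genes, 0 of 14 measured were higher with LPS in WT and 1 lower, and 3 of 12 were higher and 1 lower for the KO-labelled libraries (medians 0.27 and 0.39). Angptl2, a ligand of Pirb, was the 1 lower in both, at 10.9 and 1.59 FPKM in WT and 15.4 and 1.28 FPKM there. Apoe, a ligand of Trem2, measured 2829 and 3233 FPKM in WT and 1451 and 1739 FPKM for the KO-labelled libraries. Pglyrp1, a ligand of Trem1 stored in neutrophil granules, was at 8.13 and 12.1 FPKM in WT and 1.68 and 2.52 FPKM there, and the part of the neutrophil markers in it was not tested. Adam17, which can shed Trem2, was at 84.6 and 151 FPKM in WT and 156 and 231 FPKM there.

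**Figure D5:**
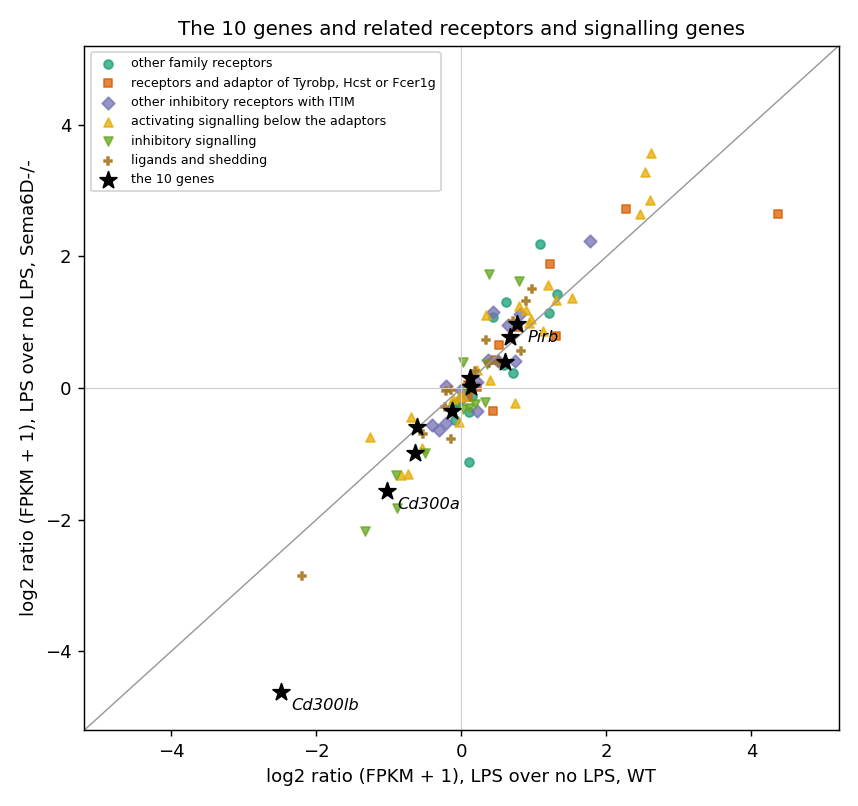
Log2 LPS ratio on the FPKM + 1 scale in WT (x axis) and for the KO-labelled libraries (y axis) for the 10 genes (stars) and 6 lists of related genes reaching 1 FPKM anywhere; the line marks equal ratios. Cd300lb at -2.49 and -4.62 is the lowest of those drawn, and Clec4e at 4.36 and 2.65 has the highest WT ratio.

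For the 3 of the 10 genes with the widest range over the libraries, the 5 protein-coding genes with the closest pattern were found among 7804 at 5 FPKM or more, by the Euclidean distance of centred log2(FPKM + 1) over 4 libraries. Nearest to Cd300lb were Rab3il1 (0.978), Tmem86a (1.03), Zfp36l2 (1.14), Arl11 (1.20) and Cxcr4 (1.24). Nearest to Cd300a were Eif4ebp2 (0.0547), Marveld1, Casp9, P2ry6 and Fbxo5 (0.0958), and nearest to Pirb were Stx16 (0.0463), Ifitm3, Atad2b, Idnk and M6pr (0.0756). The distances are a description.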

How the data were processed

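The members and gene lists were chosen with earlier results of these data known. Per the labels' protocols, stranded mRNA libraries were made from 4 macrophage cultures, 1 per group. For each RefSeq transcript the authors deposited FPKM. Named in the submitters' processing notes are Cuffnorm 2.2.1, SAMtools 0.1.19, TopHat2 2.0.13 and Bowtie2 2.2.3, with mm9. Their options, annotation and scaling are not given in the sources used here. Of 34487 transcripts, 34163 were named from the RefSeq table of GRCm38.p6 and 187 from GENCODE M21, and 137 were left out. Rows were summed per symbol. Of the 10 genes 2 had 2 rows. FPKM times transcript length less 210 bases fell on whole multiples of 1 step per library, within 0.1, for 72.9 to 73.7% of low values (20% by chance). Dividing by the step gave estimated fragments, and from them exact conditional (Clopper-Pearson) 95% intervals of ratios, with a normal interval on the log scale for differences of responses. Lengths come from GENCODE M21 and may differ from those the authors used. These intervals cover counting error only. The pseudocount was 1 FPKM, the filter 1 FPKM and the size rule 2-fold. Each of 5 comparisons was repeated under 7 alternatives. With 1 library per group no test was run. The named genes are all 10 members, up to 4 genes per list and comparison by absolute log2 ratio, others chosen after their values were seen (Fcer1g, Cd300c, Cd300c2, Cd300e, Cd300ld3, Pira2, Lilra6 and Ptpn6), cell type markers that give a list's range, zeros or genotype differences (also chosen after their values were seen), and 5 genes closest in pattern to each of 3 members. Scripts were tested on simulated data and run with Python 3.11.15, numpy 2.4.6, pandas 2.3.3 and scipy 1.17.1.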

Additional observations from a re-analysis of the deposited data

Results flagged for a closer look

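NM_145634 of Cd300lf, the transcript without the 21 extra bases, went in opposite directions with LPS in the genotypes: the log2 LPS ratio on the FPKM + 1 scale was 1.65 in WT and -2.95 for the KO-labelled libraries. These ratios rest on an estimated 0 and 72 fragments in WT without and with LPS, and 252 and 0 for the KO-labelled libraries. The split between the transcripts of Cd300lf was made by the authors' software, and no replicate shows its error. The difference between the genotypes was not tested, since each group held 1 library.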

How the results depend on the processing

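Each group held 1 library and the labels carry no replicate numbers, so no paired analysis was possible and no library was left out. Of 50 ratios of the 10 genes (10 genes in 5 comparisons), 50 kept their sign with a pseudocount of 0.1 or of 0.01 FPKM, 49 with the highest row in place of the sum, 44 after centring on the median and 37 at a common total, and no ratio past 2-fold turned its sign. Rescaling to a common total shifted LPS ratios by -0.53 in WT and -0.76 for the KO-labelled libraries, beside a median log2 ratio of genes at 5 FPKM or more of 0.12 and 0.16 as deposited. It took the genes at least 2-fold lower with LPS from 2 to 4 of 10 in WT (adding Cd300lf and Trem2) and from 2 to 5 for the KO-labelled libraries (adding Cd300ld as well). With a pseudocount of 0.1 or 0.01 FPKM, 1 of the 10 was higher with LPS for the KO-labelled libraries (Trem1), 3 were lower there (adding Cd300lf, as did centring on the median), 1 was lower in the genotype comparison without LPS (Trem3) and 2 with LPS (Cd300lb and Trem3). The highest row alone, chosen by its mean over the 4 libraries, also gave 1 lower without LPS (Cd300lf). Over all genes, rescaling to a common total gave, with LPS, 713 higher and 1502 lower for WT, 743 and 3021 for the KO-labelled libraries, 188 higher in the genotype comparison with LPS, and 123 higher and 223 lower in the difference of responses. Pseudocounts of 0.1 and 0.01 FPKM gave 892 and 949 genes lower with LPS in WT and 1443 and 1504 for the KO-labelled libraries. In the genotype comparison without LPS they gave 406 and 428 higher and 359 and 375 lower. In that with LPS they gave 492 and 528 lower, and the smaller gave 469 higher. In the difference of responses they gave 294 and 315 higher and 363 and 431 lower, and the highest row gave 346 higher and 332 lower. The cause was not tested. Depth limits Trem3 and Hcst most, at 19 to 79 estimated fragments.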
